A study of Mus musculus with 2 samples.

Results

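The cells described here are *Gpnmb Coch* fibroblasts, 1025 of the 23089 cells in 2 single-cell RNA libraries of mouse skin wounds, with 915 in the PBS library and 110 in the DTX library. The labels give C57BL/6 mice of the genotype *Mrc1-DTR*, aged 7 to 9 weeks, for both groups, treated with PBS in one and with diphtheria toxin (DTX) in the other. In these mice the promoter of *Mrc1*, which encodes the macrophage receptor CD206, drives a receptor for diphtheria toxin, so that the toxin kills the cells in which this promoter is active. At day 5 after wounding the wound tissue was taken with a punch of 10 mm, and the sorted live cells of the 3 mice of a group were combined. Per the methods the wounds were made narrower than this punch, so the cells can include those of the skin around the wound. The study's methods describe the control mice differently, as wild-type mice given the toxin, so that what the PBS library controls for is uncertain. Per the methods there were 2 technical and no biological replicates, and the files hold 1 library per group. No test between the groups was therefore possible, and all intervals are 95% intervals that cover counting error only, not differences between mice or captures. The PBS library held 12058 cells with a median of 7649 unique molecular identifiers (UMIs), which count RNA molecules, and the DTX library 11031 cells with a median of 6502. The study's text assigns the cell numbers to the groups the other way round. *Mrc1* was at 432 CPM (419.6 to 444) in 1770 macrophages of the PBS library and at 412 CPM (406 to 419) in 4571 of the DTX library, where CPM is the gene's share of all UMIs of the cells summed, on the usual scale. Macrophages were 21.3% (20.4% to 22.2%) of the PBS and 63.6% (62.5% to 64.7%) of the DTX cells kept, and fibroblasts of the gate 30.1% (29.1% to 31.1%) and 5.91% (5.38% to 6.48%). The groups follow the labels, and the order of the immune and fibroblast shares in the study's text is that of the labelled libraries.

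Members were chosen by their UMIs. Of all cells, 8326 in the PBS and 7188 in the DTX library had 500 or more genes and no more than 6% mitochondrial UMIs. A fibroblast gate then took cells with at least 2% of UMIs from *Col1a1*, *Col1a2*, *Col3a1* and *Dcn* that had no more than 1 UMI of the mural gene *Rgs5*, 0 of the endothelial gene *Pecam1*, under 5 of the myeloid gene *Lyz2*, under 0.5% from the keratins *Krt5* and *Krt14*, and under 2 of *Crabp1*. It held 2506 cells in the PBS and 425 in the DTX library. Members were gate cells with 5 or more UMIs of *Gpnmb* and *Coch* summed, and over 2 times as many of these as of *Mfap5* and *Prg4* summed. The levels of these 4 genes in the members follow from that choice and are given as a description. The rest of the gate, 1591 PBS and 315 DTX cells, is called the other gate fibroblasts. Of these, 730 and 227 were *Mfap5 Prg4* fibroblasts, with 5 or more UMIs of *Mfap5* and *Prg4* and over 2 times as many of these as of *Gpnmb* and *Coch*, and 861 and 88 were the remaining gate cells. *Crabp1* fibroblasts, 401 and 127 cells, passed the same gate but for having 2 or more UMIs of *Crabp1*. Where a pair of values is given without names, the PBS library comes first and the DTX library second.

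Fibroblasts lay down and remodel the collagen matrix of a healing wound, and subsets that differ in gene expression lie in different layers of the skin. *Gpnmb* encodes a transmembrane glycoprotein known from macrophages, melanocytes and bone cells. *Coch* encodes cochlin, a secreted matrix protein best known from the inner ear. The markers named with them are *Ctsk*, a lysosomal protease that cuts collagen, *C4b*, a component of complement, and *Mmp3*, a secreted protease of the matrix. *Mfap5* encodes a protein of elastic microfibrils and *Prg4* the lubricant lubricin, and both are used as markers of fibroblasts of the fascia, the loose layer under the skin.

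In GRCm38.p6, *Gpnmb* (ENSMUSG00000029816) lies on chromosome 6 from 49036518 to 49058182, *Coch* (ENSMUSG00000020953) on chromosome 12 from 51593283 to 51606619, and *Mmp3* (ENSMUSG00000043613) on chromosome 9 from 7445822 to 7455975. The sequences around their start sites are shown because the members held cells high in *Gpnmb* and *Mmp3* and other cells high in *Coch*. They run from 100 bases before the start site to 20 bases from it, on the plus strand, at chr6:49036418-49036537, chr12:51593241-51593360 and chr9:7445722-7445841, with the sequences and start sites of RefSeq for GRCm38.p6. Capitals mark TGACTCA, the core bound by AP-1 factors, and TATAAA, the core of the TATA box, on either strand.
Gpnmb: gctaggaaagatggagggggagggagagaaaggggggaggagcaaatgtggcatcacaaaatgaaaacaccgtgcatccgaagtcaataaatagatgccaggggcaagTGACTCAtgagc
Coch: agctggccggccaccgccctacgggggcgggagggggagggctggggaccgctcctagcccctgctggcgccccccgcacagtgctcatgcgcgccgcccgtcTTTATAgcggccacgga
Mmp3: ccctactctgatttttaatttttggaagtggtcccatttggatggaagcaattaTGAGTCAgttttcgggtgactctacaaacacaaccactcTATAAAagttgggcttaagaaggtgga
The search covered windows of 300 bases, from 250 before the start to 50 from it. *Gpnmb* held TGACTCA 8 bases after the start, *Mmp3* held it on the other strand 46 bases before the start, and these letters are not in the windows of *Coch* and *Ctsk*. TATAAA was found in *Mmp3* 7 bases before the start and, on the other strand, in *Coch* 3 bases after it. Of all 32851 promoter windows, 5.20% held TGACTCA and 13.6% held TATAAA on either strand. CACGTG, an E-box core, was in 7.15% of windows and in none of these 4. The matches shown do not overlap, and a match describes the letters in a window, not a bound site. *C4b* was not matched.

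Most members had UMIs of only one of *Gpnmb* and *Coch*. The rule counted both genes together, so that a cell high in either one became a member, and these numbers do not show that the genes exclude each other. In the PBS library 676 of 915 members (73.9%) had no UMI of *Coch*, and 205 (22.4%) had UMIs of both genes. In the DTX library 52 of 110 members (47.3%) had no *Coch* and 45 (40.9%) had both genes. At least 5 UMIs of *Gpnmb* were found in 826 PBS and 75 DTX members, at least 5 of *Coch* in 93 and 41, and at least 5 of each in 31 and 9. The median member had 9 UMIs of *Gpnmb* in the PBS and 7 in the DTX library, with ranges of 0 to 39 and 0 to 28. For *Coch* the medians were 0 and 1, and the highest cells had 78 and 123. Members with at least 10 UMIs of *Coch*, 56 and 34 cells, held 72.2% and 94.9% of all *Coch* UMIs of the members. Near the threshold, 97 PBS and 2 DTX members had exactly 5 UMIs of the 2 genes, and 113 and 7 gate cells that met the ratio had 4. A further 204 and 45 gate cells reached 5 UMIs but missed the ratio.

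**Figure D1:**
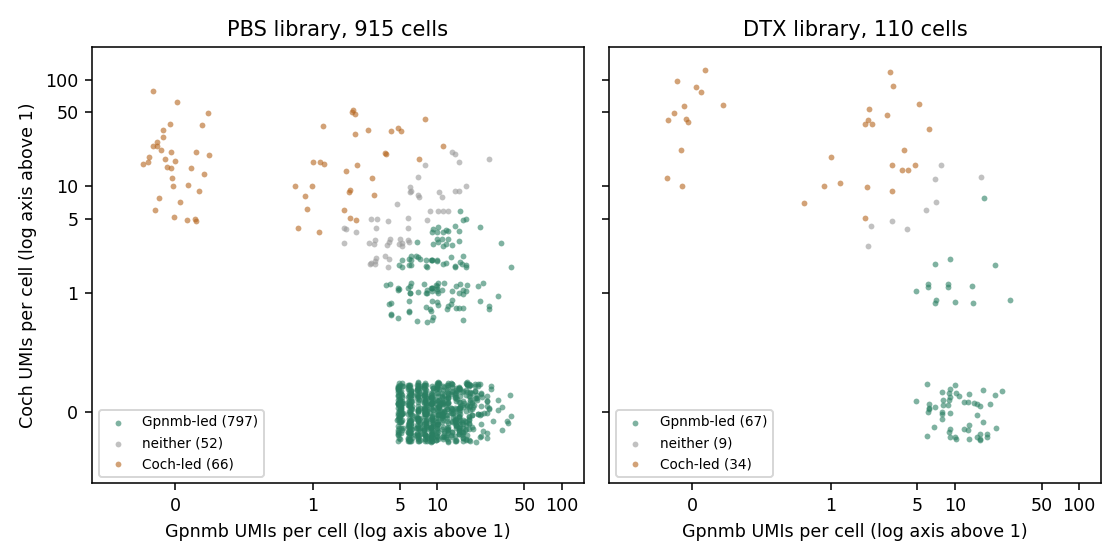
UMIs of *Gpnmb* (horizontal) and *Coch* (vertical) in each *Gpnmb Coch* fibroblast of the PBS library (left) and the DTX library (right), on axes that are logarithmic above 1, with a small random shift of each point and colours for *Gpnmb*-led cells, *Coch*-led cells and neither. Most PBS cells lie along the bottom with no or few *Coch* UMIs, and in both libraries another set of cells, with up to 78 and 123 *Coch* UMIs, lies at few *Gpnmb* UMIs.

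Members were therefore also described as *Gpnmb*-led cells, with over 2 times as many UMIs of *Gpnmb* as of *Coch*, and *Coch*-led cells, with the reverse. This division was made after the values had been seen. *Gpnmb*-led cells were 797 of 915 members in the PBS library, or 87.1% (84.8% to 89.2%), and 67 of 110 in the DTX library, or 60.9% (51.1% to 70.1%). *Coch*-led cells were 66 PBS members, or 7.21% (5.62% to 9.09%), and 34 DTX members, or 30.9% (22.4% to 40.4%), and 52 and 9 were neither. *Gpnmb* was at 907 CPM (888 to 926) in PBS and 860.2 CPM (801 to 923) in DTX *Gpnmb*-led cells. In *Coch*-led cells *Gpnmb* was at 160.4 CPM (129 to 197) and 163 CPM (124 to 211). *Coch* was at 22.7 CPM (19.8 to 26.0) and 27.9 CPM (18.1 to 41.2) in *Gpnmb*-led cells, and at 2466 CPM (2337 to 2600.2) and 3829.8 CPM (3631 to 4037) in *Coch*-led cells. Within each kind of cell the *Gpnmb* intervals of the libraries overlapped, and *Coch* was higher in DTX than in PBS *Coch*-led cells.

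These sets of members differed in many other genes. Of 2359 genes compared in both libraries, 179 (7.59%) were at least 1.5-fold higher and 127 (5.38%) at least 1.5-fold lower in *Coch*-led than in *Gpnmb*-led cells in both. Besides *Coch* itself, among the largest ratios were those of *Dkk2*, a modulator of Wnt signalling, with log2 ratios of 4.39 (4.08 to 5.23) and 5.04 (3.61 to 8.66), the latter from only 2 UMIs in *Gpnmb*-led cells, and of *Tnfrsf11b*, the RANKL decoy receptor osteoprotegerin, with 4.07 and 4.87. *Tnfrsf11b* was at 200.1 and 354 CPM in *Coch*-led cells and at 10.9 and 11.2 CPM in *Gpnmb*-led cells. *Enpp2*, the enzyme autotaxin that makes lysophosphatidic acid, was at 382 and 365 CPM against 33.7 and 40.2 CPM. *Pi16*, a marker of adventitial and fascia fibroblasts, was at 879.7 and 1176 CPM against 103 and 153 CPM. *F2r*, a thrombin receptor, with ratios of 3.03 and 2.87, *Postn*, the matrix protein periostin, with 2.65 and 2.76, and *Slit2*, a secreted guidance protein, with 2.29 and 2.74, were also among the 15 largest. Each of these genes was higher in *Coch*-led than in *Gpnmb*-led cells in both libraries. These ratios do not compare *Coch*-led cells with other fibroblasts. In the PBS library *Postn* was lower in *Coch*-led cells than in the other gate fibroblasts.

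Lower in *Coch*-led cells were *Cthrc1*, a secreted protein linked to collagen matrix, with log2 ratios of -3.09 and -3.21, *Gpx3*, a secreted glutathione peroxidase, with -2.50 and -4.42, and the cysteine protease inhibitors *Ctla2a* and *Cst6*, with -2.58 and -5.57 and with -3.07 and -4.61. Most UMIs of *Cst6* lay in a few cells, of which 5 held 89.4% in PBS and 1 cell 94.9% in DTX members, and 5 DTX members held 52.4% of those of *Ctla2a*. *Gpx3* was at 492 and 133 CPM in *Coch*-led and at 2784 and 2866 CPM in *Gpnmb*-led cells. The other markers of the label went with *Gpnmb*. *C4b* was at 633 and 172 CPM in *Coch*-led cells and 2605 and 2412 CPM in *Gpnmb*-led cells, *Mmp3* at 835 and 841 CPM against 3674 and 2418 CPM, and *Ctsk* at 3836 and 2579 CPM against 6451 and 5552 CPM. *C4b* and *Mmp3* were also lower in *Coch*-led cells than in the other gate fibroblasts, with ratios of -1.02 and -2.48 and of -1.03 and -0.77. For the *Coch*-led cells the data thus go against the part of the label that joins *Coch* to *C4b* and *Mmp3*. *Col1a1* was lower in *Coch*-led than in *Gpnmb*-led cells too, with -1.49 and -2.08.

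High *Coch* was also found outside the members. *Crabp1* fibroblasts, which the rule kept out, had 749 CPM (726 to 773) of *Coch* in the PBS and 1137 CPM (1092 to 1184) in the DTX library, against 179.8 CPM (172 to 188) and 1083 CPM (1029 to 1140.1) in the members. There too it was carried by few cells, 36 of 401 and 21 of 127, taken as having 5 or more UMIs of *Coch* and over 2 times as many of these as of *Gpnmb*, a division also made after seeing the values. These *Coch*-led *Crabp1* cells had 14303 and 10212 CPM of *Coch*, and the other *Crabp1* fibroblasts 30.9 and 10.3 CPM. Several genes that were high in the *Coch*-led members were high in them too. *Enpp2* was at 1162 and 813 CPM against 84.2 and 42.7 CPM in the other *Crabp1* fibroblasts, *Dkk2* at 110.5 and 126 CPM against 22.8 and 8.10 CPM, *Tnfrsf11b* at 164 and 222 CPM against 28.9 and 17.8 CPM, and *Pi16* at 693 and 600.2 CPM against 58.6 and 96.1 CPM. *Gpx3*, at 80.0 and 95.7 CPM against 639 and 594 CPM, was low in them as in the *Coch*-led members.

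*Gpnmb* was likewise found in *Crabp1* fibroblasts without high *Coch*, at 668 CPM (646 to 691) in the PBS and 416 CPM (387 to 446) in the DTX library. The remaining gate cells had 353 CPM (340.0 to 367) and 303 CPM (269 to 341), and *Mfap5 Prg4* fibroblasts 65.0 CPM (60.4 to 69.9) and 89.5 CPM (80.4 to 99.3). In order of level, *Gpnmb*-led members came first, followed by these *Crabp1* fibroblasts, the remaining gate cells and *Mfap5 Prg4* fibroblasts in both libraries. As these groups were chosen in part by their *Gpnmb* UMIs, this order follows largely from the choice.

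**Figure D2:**
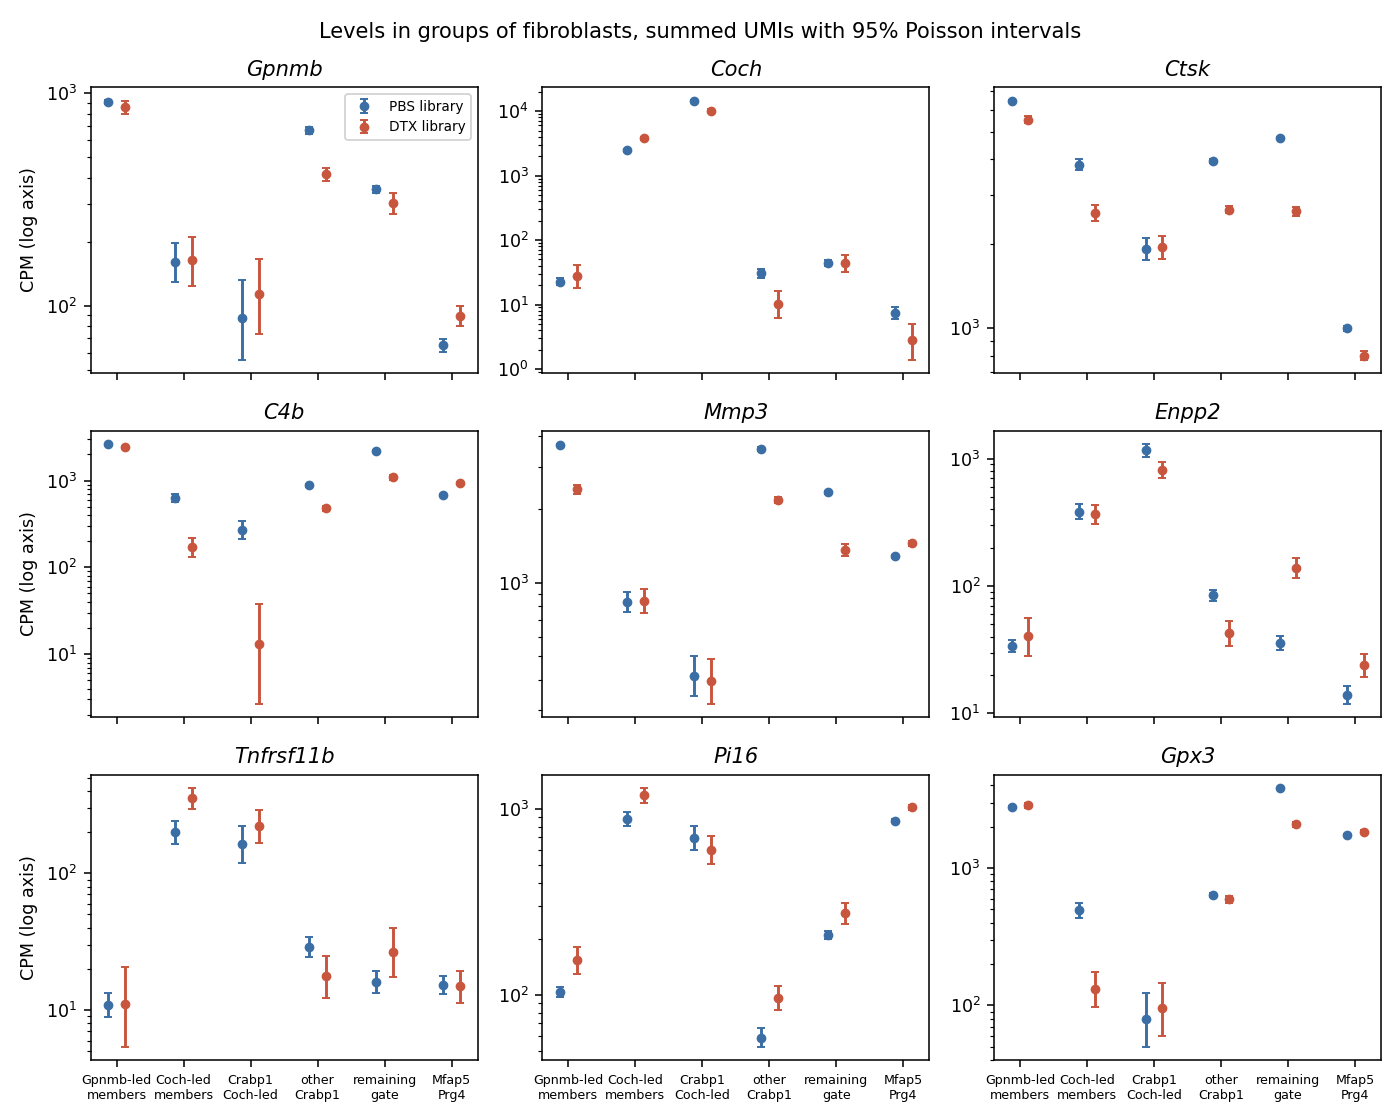
Levels of 9 genes in CPM (log axis) in *Gpnmb*-led and *Coch*-led members, *Coch*-led and other *Crabp1* fibroblasts, the remaining gate cells and *Mfap5 Prg4* fibroblasts, with 1 point per library and 95% Poisson intervals. *Coch*, *Enpp2* and *Tnfrsf11b* are high in the *Coch*-led cells of both kinds, at 382 and 365 CPM of *Enpp2* in members, whereas *Gpnmb*, *C4b*, *Mmp3* and *Gpx3* are higher in *Gpnmb*-led than in *Coch*-led members.

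Free RNA in droplets gives UMIs in cells that do not express a gene, so cells were thinned to 2000 UMIs and the share with a UMI was compared with cell types that should lack these genes. *Gpnmb* was detected in 77.2% (74.3% to 79.9%) of PBS and 59.1% (49.3% to 68.4%) of DTX members, in 1.54% and 0.833% of keratinocytes and in 2.07% and 1.18% of lymphocytes. *Coch* was detected in 93.9% and 94.1% of *Coch*-led members and in 4.28% and 5.97% of *Gpnmb*-led members. It was detected in 0.568% of PBS keratinocytes, in 0 of 120 DTX keratinocytes, which allows a share of up to 2.5% of cells with a UMI by the limit of 3 counts and of up to 3.03% by the 95% interval, and in 0.345% and 0.592% of lymphocytes. Without thinning, *Gpnmb* was detected in 96.3% and 88.2% of members and in 6.98% and 2.42% of keratinocytes, and *Coch* in 26.1% and 52.7% of members. The median depth was 11317 and 11914.5 UMIs in members, 12387 and 15095.5 in keratinocytes and 8540 and 8826 in lymphocytes. As members and their sets were chosen by UMIs of these 2 genes, their shares are fixed in large part by the rule and do not bear on expression over free RNA. Macrophages, which are known to express *Gpnmb*, had it in 11.0% and 6.81% of cells after thinning.

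The shares of the gate fibroblasts that the members made up in the PBS and DTX libraries were compared next. They were 36.5% (34.6% to 38.4%) of gate fibroblasts in the PBS library and 25.9% (21.8% to 30.3%) in the DTX library. As a share of all kept cells they were 11.0% (10.3% to 11.7%) and 1.53% (1.26% to 1.84%), and the gate itself was 30.1% and 5.91% of kept cells. The 2 sets of members went opposite ways. *Gpnmb*-led cells were 31.8% (30.0% to 33.7%) of the gate in the PBS and 15.8% (12.4% to 19.6%) in the DTX library, whereas *Coch*-led cells were 2.63% (2.04% to 3.34%) and 8% (5.60% to 11.0%).

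The rule counts UMIs, and gate cells had a median of 11297 UMIs in the PBS and 13810 in the DTX library. The counts were therefore repeated with every gate cell thinned to 3000 UMIs, which left out 141 and 8 shallower cells. At least 3 UMIs of *Gpnmb* were then found in 21.1% (19.5% to 22.8%) of 2365 PBS and 12.9% (9.88% to 16.6%) of 417 DTX gate cells, and at least 3 of *Coch* in 3.30% (2.62% to 4.10%) and 8.39% (5.92% to 11.5%). Without thinning these shares were 55.5% and 38.4% for *Gpnmb* and 7.26% and 12% for *Coch*. With at least 1 UMI they were 57.3% (55.3% to 59.3%) and 38.6% (33.9% to 43.5%) for *Gpnmb*, thinned, and 9.68% (8.52% to 10.9%) and 12.5% (9.46% to 16.0%) for *Coch*, with intervals that overlap for *Coch* only. Thinning turned the order of the share of members as a whole. Thinned, the share was 9.47% (8.32% to 10.7%) in the PBS and 10.8% (7.98% to 14.2%) in the DTX library, with intervals that overlap. With at least 10 UMIs of the 2 genes, unthinned, it was 19.0% (17.5% to 20.6%) and 17.4% (13.9% to 21.4%). There the order was kept but the intervals overlap.

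**Figure D3:**
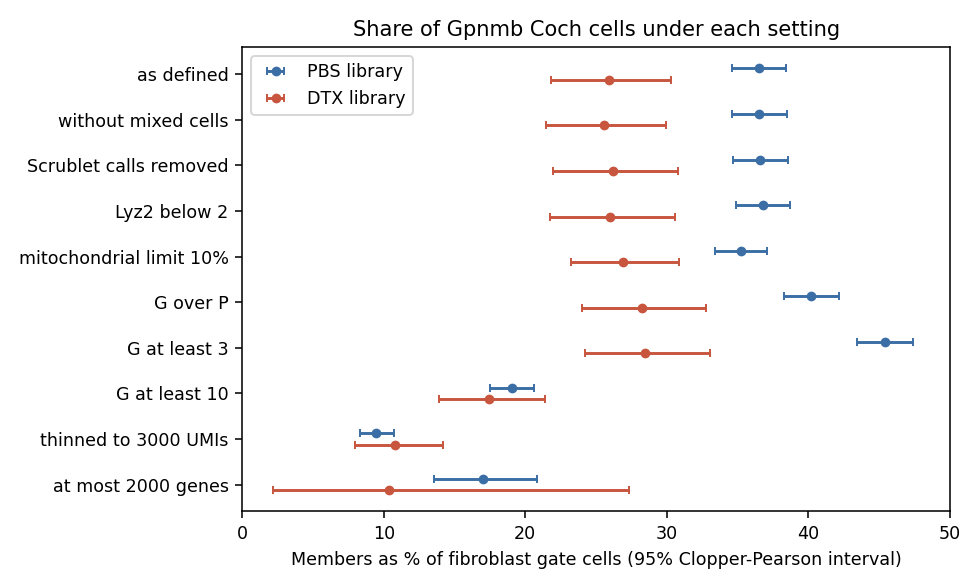
*Gpnmb Coch* fibroblasts as a percentage of gate fibroblasts in the PBS and DTX libraries under the rule as defined and under each alternative, with 95% Clopper-Pearson intervals, where G is the count of *Gpnmb* and *Coch* and P that of *Mfap5* and *Prg4*. The share is higher in the PBS library as defined, at 36.5% against 25.9%, and the order turns after thinning to 3000 UMIs, at 9.47% against 10.8%.

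Members were then compared with the other gate fibroblasts of the same library, by the log2 ratio of CPM after adding 1 CPM, over genes with a mean of at least 50 CPM. In the PBS library 192 of 2473 genes (7.76%) were at least 1.5-fold higher in members and 208 (8.41%) lower, and in the DTX library 358 of 2618 (13.7%) and 289 (11%). Of 2380 genes compared in both libraries, 140 (5.88%) were higher and 152 (6.39%) lower in both, and 0 went opposite ways. As the rule sorted the cells of each library by their own UMIs, these ratios describe the members and are no test. *Mfap5 Prg4* fibroblasts were 730 of 1591 other cells in the PBS but 227 of 315 in the DTX library, so the comparison group was not made up alike.

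All 5 marker genes of the label were at least 1.5-fold higher in PBS members, and 4 of 5 in DTX members. Of these, *Gpnmb* and *Coch* were used by the rule and so are high in members by choice. Among the markers that the rule did not use, *Ctsk* and *C4b* passed 1.5-fold in both libraries and *Mmp3* in the PBS library only. *Gpnmb* was at 854 and 649 CPM in members against 179 and 130.3 CPM in the other cells, *Coch* at 179.8 and 1083 CPM against 22.0 and 10.6 CPM, and *Ctsk* at 6255 and 4643 CPM against 2487 and 1147 CPM. *C4b*, at 2460.5 and 1708 CPM against 1283 and 962 CPM, had log2 ratios of 0.94 (0.91 to 0.96) and 0.83 (0.76 to 0.90). *Mmp3*, at 3466 and 1844 CPM against 1705 and 1433 CPM, passed 1.5-fold in the PBS library with 1.02 but not in the DTX library with 0.36 (0.30 to 0.43). Some groups outside the members had levels near theirs in one or both libraries. *Mmp3* was at 3384 and 1992 CPM in *Crabp1* fibroblasts, and *C4b* at 2197 and 1091 CPM in the gate cells that were neither members nor *Mfap5 Prg4* fibroblasts. In these remaining gate cells *Ctsk* was at 4771 and 2613 CPM, and in *Crabp1* fibroblasts at 3854 and 2572 CPM. The low level of *Ctsk* was that of *Mfap5 Prg4* fibroblasts, at 1001 and 801 CPM. *Col1a1*, *Dcn* and *Col3a1* were used by the gate and so are high in both groups by choice, with *Col1a1* at 18637 and 16559.6 CPM in members and 13617 and 11394 CPM in the other cells. Of 11 fibroblast identity genes compared, including genes of the gate, 3 were higher and 1 lower in PBS members, and 5 higher and 1 lower in DTX members. All genes gave 7.76% and 8.41%, and 13.7% and 11%. The lower gene was *Fbn1* in both libraries. Of those that the gate did not use, *Lum*, a small proteoglycan, was at 6176 and 4232 CPM in members and 3207 and 2469 CPM in the other cells. *Pdgfrb*, a PDGF receptor, was at 93.1 and 119 CPM and 63.5 and 57.5 CPM, and passed 1.5-fold in the DTX library only.

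Among the 15 genes with the largest ratios in both libraries was *Cyp26b1*, the enzyme that breaks down retinoic acid, at 303 and 334 CPM in members against 95.7 and 39.9 CPM, with ratios of 1.65 and 3.03. *Wfdc12*, a secreted protein with a protease inhibitor domain, was at 111 and 112 CPM against 19.6 and 16.4 CPM. It had UMIs in only 17.2% of PBS and 24.5% of DTX members, and 5 DTX members held 60.1% of its UMIs. *Cpe*, a carboxypeptidase that processes secreted peptides, had ratios of 1.58 and 2.23. *Igfbp2*, which binds insulin-like growth factors, had 1.55 and 2.50 but was carried by few cells, with no UMI in 92.7% of PBS members thinned to 3000 UMIs. *Ccl19*, a chemokine for lymphocytes and dendritic cells, had 1.5 and 1.65, but its near-identical copy *Gm2564* may share its reads. *Ltbp1*, which anchors latent TGF-beta in the matrix, had 1.39 and 1.44, and *Mmp11*, a matrix protease, 1.33 and 1.98. The transcription factor genes *Trps1* and *Stat5b* had 1.64 and 2.00, and 1.32 and 1.97, and *Lgals3*, the lectin galectin-3, had 1.30 and 2.18. Each of these genes is among the 15 and was higher in members in both libraries.

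The pigment cell gene *Mlana* was also among them, at 152 and 109 CPM in members against 58.8 and 18.8 CPM. Among the other cells it was at 124 and 72.9 CPM in the remaining gate cells, nearer to the members, and at 16.7 and 6.07 CPM in *Mfap5 Prg4* fibroblasts. It had UMIs in 474 PBS and 47 DTX members, and had log2 ratios of -2.44 (-3.29 to -1.78) and -5.45 (-11.20 to -3.39) in *Coch*-led against *Gpnmb*-led cells, the latter from 1 UMI in *Coch*-led cells. The 10 melanocyte and Schwann cell genes summed to 204 and 117 CPM in members and 67.1 and 23.9 CPM in the other cells, with *Mlana* the most abundant. In DTX members *Dct*, *Tyrp1*, *Tyr* and *Sox10* were at 0, and in PBS members 1 cell held 24.4% of the list's UMIs. The part of pigment cells in these values was not tested.

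Genes of the fascia and lower wound were low in members, a direction that the choice by *Mfap5* and *Prg4* bears on. Of 14 genes of this list compared in the PBS library, 11 were at least 1.5-fold lower and 0 higher, and of 13 in the DTX library 12 were lower and 0 higher, beside the 8.41% and 11% of all genes. *Mfap5* was at 23.8 and 39.6 CPM in members against 816 and 846 CPM, *Prg4* at 36.7 and 46.9 CPM against 543 and 1085 CPM, and *Plac8* at 12.1 and 47.6 CPM against 418 and 625 CPM. *Pi16*, high in the *Coch*-led members, is on this list and was lower in members as a whole, with ratios of -1.85 and -0.77. *Mest* had 8 UMIs in PBS and 0 in DTX members. The smallest ratios were those of *Thbs4*, a matricellular thrombospondin, with -6.20 and -6.62 from 8 and 3 UMIs in members, and *Sfrp2*, a Wnt modulator, with -6.01 and -5.46. *Igfbp4*, which binds insulin-like growth factors, had -4.93 and -4.09.

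Matrix genes divided. Of 16 collagen genes compared, 0 were at least 1.5-fold higher and 7 lower in PBS members, and 1 was higher and 4 lower in DTX members, where all genes gave 7.76% higher and 8.41% lower in PBS and 13.7% and 11% in DTX members. *Col12a1*, *Col14a1*, *Col5a1* and *Col5a3* were lower in both libraries, with ratios of -3.60 and -1.55 for *Col12a1* and -3.08 and -2.52 for *Col14a1*. Collagen processing genes were higher in 1 and lower in 5 of 14 in PBS members, and higher in 1 and lower in 3 of 14 in DTX members. Of proteoglycan and matricellular genes, 6 of 20 were higher and 5 lower in PBS members and 9 of 23 higher and 6 lower in DTX members. *Fn1*, fibronectin, was at 419 and 416 CPM in members against 1606 and 1723 CPM, and *Postn* at 116 and 483 CPM against 1429 and 1169 CPM. *Mfap4*, a microfibril protein, was higher, at 1419 and 1976 CPM against 907 and 565 CPM, as were *Dcn* and *Lum*, the small proteoglycans decorin and lumican, and *Thbs2*. Of 12 metalloproteinase and inhibitor genes, 5 were higher and 4 lower in PBS members, and 4 and 4 in DTX members. The inhibitor gene *Timp2* was higher and *Timp1* lower in both, with ratios of 0.68 and 0.71 against -0.85 and -1.25. *Acta2*, smooth muscle actin and a marker of contractile myofibroblasts, was at 13.0 and 9.53 CPM in members against 129.6 and 144 CPM, and of 4 genes of its list 2 and 3 were lower.

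**Figure D4:**
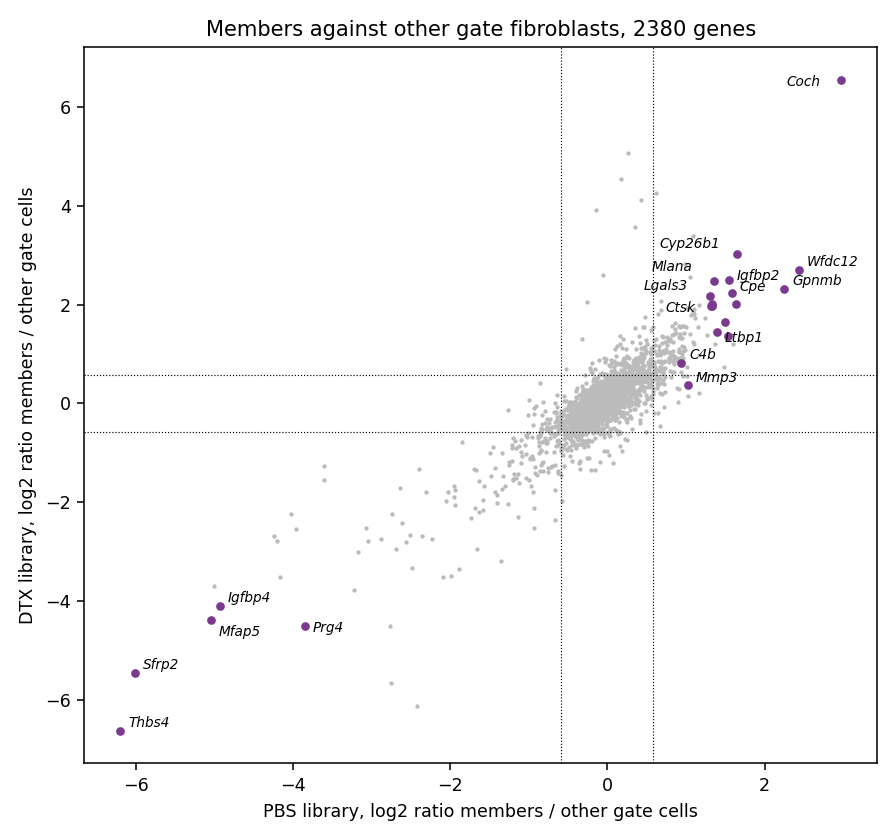
Log2 ratio of *Gpnmb Coch* fibroblasts to other gate fibroblasts in the PBS library (horizontal) and the DTX library (vertical) for the 2380 genes compared in both. Each point is a gene and dotted lines mark 1.5-fold. *Coch*, by which members were chosen together with *Gpnmb*, is highest in both libraries, at 2.97 and 6.54. Its ratio follows largely from that choice. In opposite directions, 0 genes lie past 1.5-fold.

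Lysosomal genes were higher in part. Of 20 genes of this list compared in each library, 4 were at least 1.5-fold higher and 1 lower in PBS members, and 6 were higher and 1 lower in DTX members, beside 7.76% and 13.7% of all genes. Besides *Ctsk*, those higher in both were *Ctsb*, a cysteine protease, with ratios of 0.88 and 0.88, *Psap*, the precursor of the saposins, with 0.83 and 0.98, and *Hexa*, a subunit of hexosaminidase, with 1.09 and 1.25. *Lgmn*, the protease legumain, was lower, with -0.98 and -1.13. Of TGF-beta and activin genes, 5 of 15 were higher and 0 lower in PBS members, and 7 of 16 higher and 2 lower in DTX members. *Ltbp1*, *Ltbp2* with 1.16 and 2.00, *Nbl1* with 0.80 and 1.26 and the receptor gene *Tgfbr1* with 0.74 and 1.25 were higher in both libraries.

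Chemokine and cytokine genes were lower in 8 of 16 in the PBS and 10 of 16 in the DTX library, with 3 higher in each, beside 8.41% and 11% of all genes lower and 7.76% and 13.7% higher, the shares against which the counts of the next lists are also to be read. The neutrophil attractant *Cxcl1* was at 1916 and 2239 CPM in members against 6187 and 9711 CPM, *Cxcl5* at 85.1 and 362 CPM against 1591 and 2482 CPM, *Il6* at 197 and 241 CPM against 476 and 989 CPM, and the alarmin *Il33* at 138 and 91.6 CPM against 587 and 1052 CPM. *Ccl8*, a monocyte attractant, went the other way, at 1660.4 and 784 CPM against 546 and 341 CPM. *Ccl2*, also a monocyte attractant, was at 8849 and 5435 CPM in members and 8855 and 10569 CPM in the other cells, nearly equal in the PBS library and lower in DTX members. Complement genes were higher in 1 and lower in 3 of 8 and higher in 1 and lower in 6 of 9, with *C4b* the higher one and *C3* among the lower, at 1071 and 545 CPM in members against 1706 and 2803 CPM. Of acute phase genes, 3 of 9 were higher and 2 lower in PBS members and 2 of 10 higher and 4 lower in DTX members, with *Serpina3n*, a protease inhibitor, higher at 1.17 and 0.98 and *Ptx3*, pentraxin 3, lower at -1.35 and -3.18. Glycolysis and hypoxia genes were lower in 6 and higher in 1 of 13 genes in the PBS library, and lower in 8 and higher in 1 of 14 in the DTX library. Interferon-stimulated genes were lower in 3 of 7 and 4 of 8 and higher in 0.

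*En1*, which marks a lineage of scar-forming fibroblasts, and *Pdgfra*, a PDGF receptor, did not pass 1.5-fold as scaled here. *En1* was at 199 and 132 CPM in members and 135 and 135 CPM in the other cells, with log2 ratios of 0.56 (0.48 to 0.65) in the PBS and -0.03 (-0.28 to 0.21) in the DTX library. With the median ratio of all genes set to 0, *En1* was past 1.5-fold higher in PBS members, the 1 of 3 dermal lineage genes compared whose call turned. Against *Mfap5 Prg4* fibroblasts alone the ratios of *En1* were 1.13 and -0.07. *Pdgfra* was at 149 and 108 CPM in members and 108 and 108 CPM in the other cells. After thinning to 2000 UMIs, *En1* was detected in 29.9% (27.0% to 33.0%) and 21.8% (14.5% to 30.7%) of members, in 30.2% and 20.0% of the remaining gate cells and in 0.0811% and 0 of 120 keratinocytes, and without thinning in 70.9% and 58.2% of members. Of the 20 cell cycle genes, 0 reached the mean of 50 CPM over members and other cells in either library.

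Members of the DTX library were compared with those of the PBS library to describe how they differed between the groups. Of 2513 genes compared, 182 (7.24%) were at least 1.5-fold higher and 101 (4.02%) lower in the DTX library, so that 64.3% of these genes were higher. The median log2 ratio was 0.11, and with it set to 0 the counts were 104 higher and 144 lower, or 41.9% higher, so which direction held more genes depended on the scaling. Because *Coch*-led cells were a larger share of DTX members, values are given for *Gpnmb*-led cells as well, in which 164 of 2455 genes (6.68%) were higher and 90 (3.67%) lower. In *Coch*-led cells 10.6% of 2752 genes were higher and 7.99% lower, in *Mfap5 Prg4* fibroblasts 2.01% and 1.86% of 2583, and in *Crabp1* fibroblasts 3.37% and 3.95% of 2734, and fewer cells give such counts more counting error. The treatment, the mice and the capture cannot be told apart.

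*Coch* itself was higher in DTX members, with a log2 ratio of 2.58 (2.49 to 2.69), but had 0.28 (-0.36 to 0.90) in *Gpnmb*-led cells. The latter follows largely from the choice of *Gpnmb*-led cells by their low *Coch*. *Tnfrsf11b*, which the rule did not use, had 2.33 in members and 0.03 in *Gpnmb*-led cells. *Postn*, at 116 and 483 CPM in members and 91.8 and 193 CPM in *Gpnmb*-led cells, had 2.05 and 1.06. *Gpnmb* had -0.40 (-0.50 to -0.30) in members and -0.08 (-0.18 to 0.03) in *Gpnmb*-led cells, *Ctsk* -0.43 and -0.22, and *C4b* -0.53 and -0.11. Of the markers of the label, *Mmp3* was past 1.5-fold lower in both, with -0.91 and -0.60. With the median ratio set to 0, 2 of the 5 markers were past 1.5-fold lower in members, *Mmp3* and *C4b*. *En1*, with -0.59 and -0.55, passed 1.5-fold in members, but in *Gpnmb*-led cells only with the median ratio set to 0, and *Pdgfra* had -0.45 and -0.38.

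Genes of the cholesterol list were higher in the DTX library. All 4 genes of the list that reached the mean of 50 CPM, of 20 in the list, were at least 1.5-fold higher in members and in *Gpnmb*-led cells, beside 7.24% and 6.68% of all genes, and they were so with the median ratio set to 0. This mean can be reached through the DTX library alone, so the count follows in part from the filter. *Hmgcs1*, an early enzyme of cholesterol synthesis, was at 53.2 and 178 CPM in members, with a log2 ratio of 1.72 (1.52 to 1.96), and 1.74 in *Gpnmb*-led cells. *Insig1*, a feedback regulator of the pathway, was at 50.9 and 125 CPM with 1.28 and 1.20. *Hmgcs1* had UMIs in 34.0% of PBS and 60% of DTX members. The list was also higher in 5 of 7 genes in *Crabp1* and 1 of 2 in *Mfap5 Prg4* fibroblasts, beside 3.37% and 2.01% of all genes, where *Hmgcs1* had 1.20 and 0.71. Of the 14 mTORC1 and amino acid genes, 2 were compared in members and neither passed 1.5-fold, and of 3 compared in *Gpnmb*-led cells *Mthfd2*, an enzyme of mitochondrial folate metabolism, was higher, but not with the median ratio set to 0.

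Immediate early and heat shock genes, which respond quickly to stress and are known to respond to tissue digestion, were higher in DTX members in 12 of 19 genes and lower in 0, with a median of 0.78, and in *Gpnmb*-led cells in 13 of 19 with a median of 1.07, beside 7.24% and 6.68% of all genes. *Hspa1a*, which encodes a heat shock chaperone, was at 644 and 1723 CPM in members with 1.42, and 1.76 in *Gpnmb*-led cells. Among transcription factor genes, *Klf2* was at 124 and 328 CPM with 1.40 and 1.95, *Fos* at 461 and 902 CPM with 0.97 and 1.51, and *Atf3* at 267 and 531 CPM with 0.99 and 1.45. *Coch*-led cells had 1 of 19 genes higher and 9 lower, with -1.25 for *Fos* and -1.11 for *Klf2*, beside 10.6% and 7.99% of all genes. In *Mfap5 Prg4* and *Crabp1* fibroblasts 0 of 19 genes were higher, with 0 and 1 lower. All genes gave 2.01% and 3.37% higher, and 1.86% and 3.95% lower, in these fibroblasts. The differences between these groups were not tested. The median mitochondrial share was 3.01% in PBS and 4.71% in DTX members, and 3.07% and 3.83% in the other gate cells, and its part in these values was not tested.

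*Tgfb1* and some matrix genes were among the others that were higher. Of 17 TGF-beta and activin genes compared in members, 3 were higher and 2 lower, the latter *Tgfb2* and *Fst*. Of 20 proteoglycan and matricellular genes, 3 were higher and 2 lower, the latter *Ogn* and *Thbs1*. All genes gave 7.24% higher and 4.02% lower. With the median ratio set to 0 the counts were 2 and 3 in the first list, and 3 and 5 in the second. *Tgfb1* was at 47.5 and 131 CPM in members with 1.45, and 1.46 in *Gpnmb*-led cells, and had 0.89 in *Crabp1* fibroblasts. In *Mfap5 Prg4* fibroblasts *Tgfb1* had 1.11 but did not reach the mean of 50 CPM, so it is not in their counts. *Tnc*, the matricellular protein tenascin-C, had 1.03 in members and 0.81 in *Gpnmb*-led cells, and *Has1*, a hyaluronan synthase, 0.85 and 0.92. Of 14 collagen genes 4 were higher and 0 lower in members, beside 7.24% and 4.02% of all genes, namely *Col6a2*, *Col6a3*, *Col4a1* and *Col4a2*, and 3 were higher in *Gpnmb*-led cells, or 1 with the median ratio set to 0. The fibrillar genes *Col1a1*, *Col1a2* and *Col3a1* had -0.17, -0.46 and -0.21 in members. Of 21 lysosomal genes compared, 0 were past 1.5-fold in either direction in members or in *Gpnmb*-led cells. *Ifi27l2a*, an interferon-stimulated gene, had 2.46 in members and 2.03 in *Gpnmb*-led cells, and *Tsc22d3*, a glucocorticoid-induced gene, 1.63 and 1.87. Glycolysis and hypoxia genes were higher in 4 and lower in 1 of 13 genes in members, but in 1 and 1 with the median ratio set to 0.

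Some of the 10 largest differences rested on few cells. *S100a9*, a neutrophil gene, had a log2 ratio of 4.79 in members, but 1 cell held 93.1% of its UMIs in DTX members. Of the DTX UMIs, 5 cells held 97.8% for *Saa1*, 95.3% for *Cxcl5* and 75.9% for *Mgp*, whose ratios in members were 2.23, 2.08 and 2.25. *Hmgcs1*, *Ifi27l2a* and *Postn* were spread more widely, with 32.5%, 40.8% and 33.4% in 5 cells of 110.

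*Csf1* and some monocyte attractants were lower in DTX members. *Csf1*, the growth factor of macrophages, was at 1017 and 391 CPM in members, with a log2 ratio of -1.38 (-1.51 to -1.25), and -1.55 in *Gpnmb*-led cells. It had -1.54 in *Crabp1* and -0.14 in *Mfap5 Prg4* fibroblasts. *Ccl2* was at 8849 and 5435 CPM with -0.70 in members and -1.03 in *Gpnmb*-led cells, *Ccl7* at 4231 and 2681 CPM with -0.66 and -0.78, and *Ccl8* at 1660.4 and 784 CPM with -1.08 and -0.75. Of the chemokine and cytokine list, 4 of 15 genes were lower and 2 higher in members, and 6 of 14 lower and 2 higher in *Gpnmb*-led cells, in which *Il6* and *Il33* were also lower, and with the median ratio set to 0 the lower genes were 5 and 8. All genes gave 4.02% and 3.67% lower. In *Coch*-led cells, 7 of 16 genes were higher, among them *Cxcl1*, *Il6* and *Il33*, and 3 lower, among them *Csf1* and *Ccl8*, beside 10.6% and 7.99% of all genes. *Ptx3* had -1.02 and -1.49, and *C3* -0.97 and -0.71. *Serpinb2*, an inhibitor of plasminogen activators, had -2.88 from 1611 and 27 UMIs, and 5 cells held 47.5% of the PBS UMIs.

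**Figure D5:**
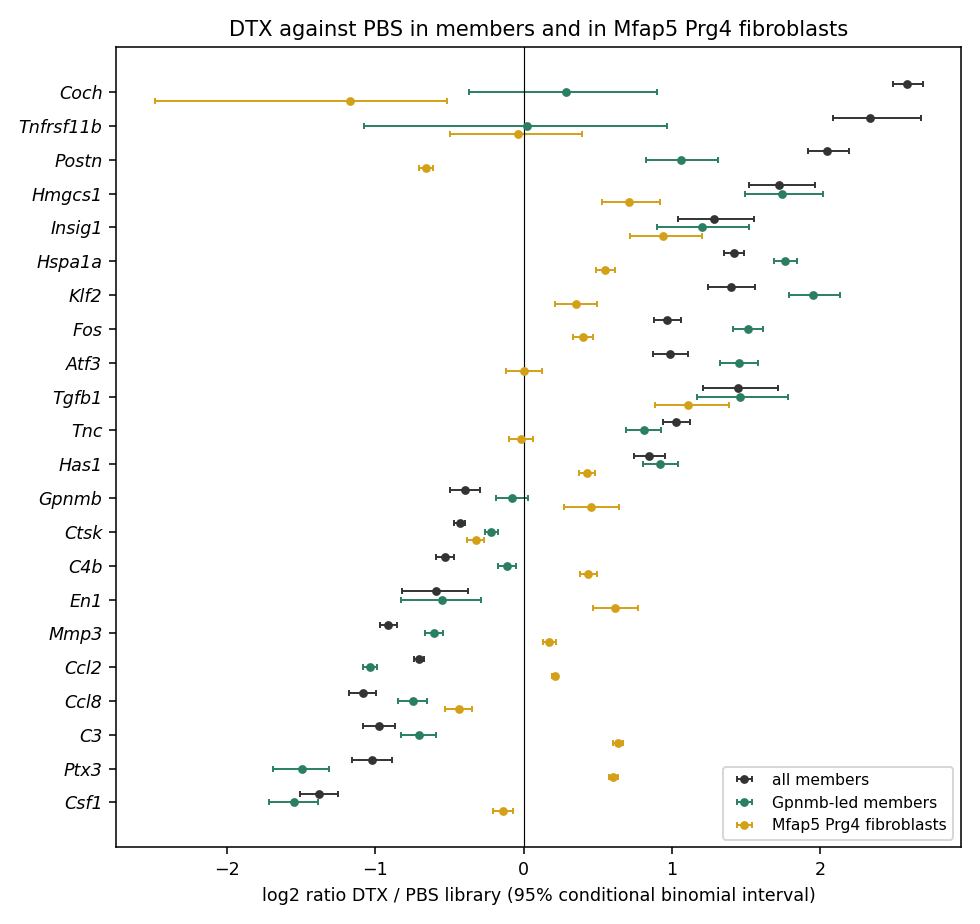
Log2 ratio of the DTX to the PBS library for a set of genes, most of them described here, in all *Gpnmb Coch* fibroblasts, in *Gpnmb*-led cells and in *Mfap5 Prg4* fibroblasts, with 95% conditional binomial intervals that cover counting error only. *Coch* and *Tnfrsf11b* are high in all members, at 2.58 and 2.33, but at 0.28 and 0.03 in *Gpnmb*-led cells, the former set by the choice of these cells by low *Coch*, whereas *Hmgcs1* is higher and *Csf1* lower in both.

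Other large differences were those of keratinocyte and MHC class II genes. The 16 keratinocyte genes summed to 1740.2 and 693 CPM in members and 1965 and 305 CPM in the other gate cells, with *Lgals7* the most abundant in members and *Krt1* at 0 in DTX members. In DTX members 1 cell held 78.8% of these UMIs. Of the 10 compared, 8 were lower in the DTX library in members, and 9 of 9 and 9 of 9 were lower in *Mfap5 Prg4* and *Crabp1* fibroblasts, beside 4.02%, 1.86% and 3.95% of all genes. The mean of 50 CPM can be reached through the PBS library alone. These counts thus follow in part from the filter and are no test. The 4 MHC class II genes, with *Cd74* the most abundant, summed to 615 and 111 CPM, and *Cd74* had a log2 ratio of -2.85. Cells with 1% or more of their UMIs from the lists of other cell types and the MHC class II genes, a limit set after seeing the data, are called mixed cells, and were 31 PBS and 2 DTX members. Without them the keratinocyte genes summed to 391 and 151 CPM and the MHC class II genes to 125 and 113 CPM, and *Cd74*, *H2-Ab1* and *H2-Eb1* had -0.36, -0.19 and -0.01. As these cells were chosen by the same genes, lower sums without them follow from the choice, and the part of other cell types in these differences was not tested. The predicted gene *Gm47283*, at 217 and 6.6 CPM, had the lowest ratio in members, -4.84, and -4.08 and -4.24 in *Mfap5 Prg4* and *Crabp1* fibroblasts. Without these mixed cells 189 genes (7.62%) were higher and 85 (3.43%) lower in DTX members.

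The sums of genes of other cell types are partly set by the gate, which limited *Lyz2*, *Rgs5*, *Pecam1*, *Krt5* and *Krt14*. The 16 macrophage genes summed to 151 and 155 CPM in members, led by *Csf1r* in the PBS and *Lyz2* in the DTX library with 0 genes at 0, and to 113 and 147 CPM in the other gate cells. The targeted gene *Mrc1* was at 2.64 and 3.67 CPM in members. The 8 neutrophil genes summed to 368 and 503 CPM in members and 228 and 162 CPM in the other gate cells, led by *Il1r2*, a decoy receptor of interleukin 1, at 313 and 265 CPM in members, and 1 cell held 42.7% of the DTX sum, with *Retnlg* at 0 in PBS and *Cxcr2* at 0 in DTX members. The 10 mural and endothelial genes summed to 26.0 and 33.7 CPM, led by *Abcc9* with *Pecam1* and *Tie1* at 0, and the 10 lymphocyte genes to 16.0 and 3.67 CPM. Of the 5 red cell genes there were 0.565 CPM and 0. As *Gpnmb* and *Ctsk* are also genes of osteoclasts, 8 osteoclast genes were summed too, at 129 and 149.5 CPM in members and 135 and 175 CPM in the other cells. *Nfatc1* led them, and *Dcstamp*, which osteoclasts need to fuse, was at 0 in both. The libraries shared 37 cell barcodes, and 0 were members in both.

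Members also varied among themselves beyond *Gpnmb* and *Coch*. After thinning to 3000 UMIs, which left 909 PBS and 110 DTX members, the 10 genes with the highest ratio of variance to mean included *Cst6*, the acute phase gene *Saa3* and *Ctla2a* in both libraries. *Saa3* had no UMI in 51.7% of PBS and 56.4% of DTX members and up to 298 and 381 UMIs in 1 cell. *Ctla2a* had none in 50.5% and 68.2% of members, and *Cst6* in 79.8% and 90.9%. *Col1a1* was also among the 10 of each library but had UMIs in nearly every member, with medians of 51 and 37 UMIs. The DTX genes also included *Lcn2*, *Cxcl2*, *Ccl2* and *Col3a1*, and the PBS genes *Cd74*, *Sparc* and *Igfbp2*. Of the 10 genes, 9 were among the 10 at 5000 UMIs in each library.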

How the data were processed

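Live cells of day 5 wounds were captured with 10x Chromium 3' chemistry. The authors made the deposited UMI counts per gene and cell with Cell Ranger 6.1.1, per the file headers, against mm10, while the study's methods name another release, and the barcodes are those its cell calling kept. UMI counts are not normalized. Counts were summed over the cells of a group (numpy 2.4.6, pandas 2.3.3), scaled to CPM, and compared as log2 ratios after adding 1 CPM, over genes with a mean of 50 CPM or more in the groups compared. Genes at least 1.5-fold apart were counted. As a gene high in only 1 of the groups can reach the mean, counts over lists are descriptions and no test. Adding 1 CPM understates the change of low genes. Intervals are exact binomial or Poisson intervals (scipy 1.17.1) of 95% and cover counting error only. With 1 library per group no p-value was computed. Depth was 105511870 UMIs in the PBS and 81858751 in the DTX library. The method was tested on simulated data.

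The members and the gene lists were chosen with earlier results of these data known. Genes named are the markers, genes the study names for its fibroblasts, members of 33 gene lists, the 15 largest and 5 smallest ratios of members to other gate fibroblasts, the 10 largest differences each way between libraries, and the 10 most variable genes per library. Those named for *Coch*-led against *Gpnmb*-led cells were chosen after their values were seen. Doublets were not removed, and Scrublet (scanpy 1.11.5) was run as an alternative. The study's methods set an upper limit of 2000 genes per cell, which 91.9% of PBS and 97.3% of DTX members exceed, so it was an alternative and not the rule. Other alternatives changed the UMI minimum, the ratio, the mitochondrial and *Lyz2* limits, depth, pseudocount, filter, weighting and scaling. Columns of other samples numbered 0. Some genes of the lists are not reported here. Figures were drawn with matplotlib 3.10.9.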

Additional observations from a re-analysis of the deposited data

Results flagged for a closer look

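Some genes differed between the DTX and PBS libraries past 1.5-fold in one direction in *Gpnmb Coch* fibroblasts and in the opposite direction in another group of fibroblasts. With 1 library per group these differences were not tested. Against *Mfap5 Prg4* fibroblasts, the complement gene *C3* had log2 ratios of -0.97 in *Gpnmb Coch* and 0.64 in *Mfap5 Prg4* fibroblasts. For *En1* these were -0.59 and 0.61, for *Postn* 2.05 and -0.66, and for *Ptx3* -1.02 and 0.61. For *C3*, *En1* and *Ptx3* the ratios were not alike in both sets of members. In *Gpnmb*-led and *Coch*-led cells they were -0.71 and -0.41 for *C3*, -0.55 and -0.20 for *En1*, and -1.49 and 1.69 for *Ptx3*, so that *En1* passed 1.5-fold in neither set. *Postn* was higher in *Coch*-led than in *Gpnmb*-led members of both libraries, and its ratio in *Gpnmb*-led cells alone was 1.06. In *Coch*-led cells alone, at 580 CPM in the PBS and 1312 CPM in the DTX library, it was also past 1.5-fold higher.

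Against *Crabp1* fibroblasts, the stress response gene *Atf3* had 0.99 in *Gpnmb Coch* and -0.79 in *Crabp1* fibroblasts, with 1.45 in *Gpnmb*-led and -0.58 in *Coch*-led cells. The MHC class II genes had -2.85 and 0.77 for *Cd74*, -1.95 and 0.74 for *H2-Aa*, -2.31 and 1.34 for *H2-Ab1*, and -2.20 and 1.14 for *H2-Eb1*. Without the mixed cells *Cd74*, *H2-Ab1* and *H2-Eb1* had -0.36, -0.19 and -0.01 in *Gpnmb Coch* fibroblasts. Mixed cells have 1% or more of their UMIs from lists of other cell types and these MHC class II genes, so that smaller differences without them follow in part from that choice.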

How the results depend on the processing

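No paired analysis was possible because each group has 1 library, and for the same reason none was left out in turn. Of the values recomputed for shares, counts of genes and lists, 61 stayed near the reported value and 21 did not, and of those for single genes 605 stayed, 21 moved and 10 took the other sign. A share stayed if it lay within the 95% interval of the reported one, which is wider in the DTX library, and a count if it was within 1.5-fold. A gene moved if it was past 1.5-fold as reported and no longer was, and a gene that was not past it is counted as having stayed. The cause was not tested unless stated.

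The share of members in the gate was 45.4% in the PBS library with a minimum of 3 UMIs and 40.2% with more *Gpnmb* and *Coch* than *Mfap5* and *Prg4*. With a minimum of 10 UMIs it was 19.0% and 17.4% in the PBS and DTX libraries, and thinned to 3000 UMIs 9.47% and 10.8%. A mean of 20 CPM, which lets in more genes, gave 308 genes higher and 403 lower in PBS members against other gate fibroblasts, 721 and 576 in DTX members, and 473 and 200 for DTX against PBS. Setting the median ratio to 0 gave 104 genes higher for DTX against PBS, and 29 list genes lower of 204 compared. Without the PBS cells called by Scrublet and the 670 DTX cells with its highest scores, as its own threshold called 0% there, *H2-Eb1* had 0.033 for DTX against PBS.

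A limit of 2000 genes left 74 PBS and 3 DTX members, so that its DTX values rest on 3 cells. Shares were then 17% and 10.3%, and genes lower in PBS members were 132. DTX members had 1183 genes higher and 606 lower, and DTX against PBS 1025 and 545. Signs turned for *Igfbp2* (-0.38) and *Stat5b* (-0.10) in PBS members, for *Ltbp1* (-0.21), *Mmp11* (-3.23) and *Stat5b* (-3.23) in DTX members, and for DTX against PBS in *Cxcl5* (-4.64), *Mgp* (-5.45), *Tnfrsf11b* (-6.39) and *H2-Eb1* (0.12). Depth limits all statements on DTX members, of which there were 110 with 1364222 UMIs.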
